A study of Mus musculus with 20 samples.

Results

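DNA replication and G1/S genes are the genes that a cell transcribes as it leaves G1 and that then license origins, unwind DNA, copy it and repackage it. A list of 49 of them was followed through 20 cultures of embryonic mouse fibroblasts, which are dividing cells of connective tissue taken into culture. They were chosen by function, as genes of the G1 to S transition and of DNA replication. No measured value was in the rule, but earlier results of these data were known. Of the 49, 47 had a probe set that names 1 gene, and 46 of these passed a filter on low signal, among 7436 of 12393 genes on the arrays. Gins2 and Chaf1a had no such probe set. Tyms, thymidylate synthase, did not pass. Its brightest probe set had signals of 80.7, 32.9 and 87.4 in wild type embryos 1 to 3 and of 54.2, 59.3, 58.8, 69.0 and 77.7 in null embryos 1 to 5. Its other probe sets stayed at or under 16.3.

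The E2F factors bind promoters of these genes. In resting cells E2F4 occupies them in complexes with p107 or p130, pocket proteins that hold transcription down, and on re-entry into the cycle the activating factors E2F1, E2F2 and E2F3 replace it. The transcripts therefore peak together at the G1/S boundary. In a dividing fibroblast culture the level of such a gene reflects how many cells are in late G1 and S phase as well as the transcription in each cell.

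The arrays, 1 per culture, held total RNA of primary fibroblasts from embryos at 13.5 days post coitum. The wild type group was 3 embryos with 3, 3 and 4 cultures, and the E2F4 null group 5 embryos with 2 cultures each, 20 cultures in all. The labels name no strain, sex, litter, passage, density or deleted part of E2f4, and nothing else that the groups share. The embryo was the replicate, and the cultures of 1 embryo were repeats of it. Signals are the deposited intensities averaged over the cultures of an embryo. Differences are on the log2(signal + 16) scale, which understates the change of dim genes. Levels were compared within a probe set only, apart from sums of marker signals, in which the brightest genes weigh most.

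All arrays shared a trimmed mean signal of 500.2, with medians from 135 to 146. The targeted gene had signals of 209, 212 and 222 in wild type embryos 1 to 3 and of 157, 167, 156, 155 and 196 in null embryos 1 to 5. All null embryos lay below all wild type embryos, but E2f4 transcript was still measured in them, and the difference of -0.35 (SE 0.10, limma adjusted p = 0.363) did not pass. A probe set outside the deleted part checks nothing. Of the 13 fibroblast markers listed, Col1a1 (10290 to 13840) and Vim (20560 to 26400) had high signals in each embryo. Others differed widely between embryos, such as Pdgfra (191 to 1368) and Lum (81.8 to 2220).

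A promoter was available in RefSeq (GRCm38.p6, 250 bases before to 50 after each start) for 41 of the 49 genes. The windows were searched on both strands for the E2F letters TTTCCCGC, TTTGGCGC, TTTCGCGC and TTTGCCGC. At least 1 of these was found for 19 of the 41 genes (46.3%), against 2.60% of all 27025 genes in the table and 1 of 23 genes of the G2/M list used below. By role, the letters were in 4 of 5 licensing genes (Cdc6, Cdt1, Dtl and Orc1), 4 of 5 MCM genes (Mcm3, Mcm5, Mcm6 and Mcm7), 4 of 6 polymerase genes (Pola1, Pold1, Pold3 and Pole2) and 4 of 8 genes of histone supply and chromatin copying (Cdca7, Dnmt1, Hells and Uhrf1). They were in 1 of 2 genes of the cyclin group (Cdc25a), 1 of 4 of the clamp group (Rfc3), 1 of 3 of the fork group (Lig1), 0 of 2 of helicase activation and 0 of 6 nucleotide genes. A match is a description of letters, not a bound site, and a window without them says nothing of the factor. The CCAAT box letters, CCAAT, were in 23 of the 41 genes (56.1%, against 41.1% of all genes) and in 20 of 23 G2/M genes. The CHR letters, TTTGAA or TTCGAA, were in 7 of the 41 (17.1%, against 21.7%) and in 19 of 23 G2/M genes.

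4 stretches are shown to let a reader see these letters at genes whose values follow. In each role group the gene with the largest F between wild type embryos was taken, and it is shown where its window held E2F letters. Each runs 5′ to 3′ on the gene's strand with the E2F letters in capitals, and positions are counted from the first transcribed base as +1. The Cdt1 stretch is chr8:122568036-122568064 (plus strand, motif from +33). That of Mcm6 is chr1:128359706-128359855 (minus strand), where capitals start at -110 and -47 and the first run joins overlapping matches from -110 and -106 on opposite strands. The Pola1 stretch is chrX:93632246-93632333 (minus strand, from -138), and that of Uhrf1, from 1 of its 2 windows, is chr17:56304088-56304175 (plus strand, from -185).
Cdt1: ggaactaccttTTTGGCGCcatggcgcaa
Mcm6: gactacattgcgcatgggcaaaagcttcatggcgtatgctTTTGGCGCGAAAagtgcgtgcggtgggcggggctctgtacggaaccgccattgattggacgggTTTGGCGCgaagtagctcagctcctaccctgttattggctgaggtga
Pola1: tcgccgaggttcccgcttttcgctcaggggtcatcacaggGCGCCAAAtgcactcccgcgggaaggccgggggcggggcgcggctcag
Uhrf1: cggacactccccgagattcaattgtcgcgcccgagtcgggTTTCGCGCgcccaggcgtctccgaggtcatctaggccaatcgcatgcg
The windows of Ccne1, Mcm10, Rfc5, Rpa2 and Tk1, which had the largest F of the other groups, did not hold these letters.

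No shift of the replication genes was detected between genotypes, in a comparison in which nearly no gene passed. A count of 0 is thus not particular to this list. None of the 46 passed between genotypes (limma on embryo means, Benjamini-Hochberg adjusted p under 0.05; 0.0134% of all genes, 1 of 7436, did), and the smallest adjusted p was 0.703. At an unadjusted p under 0.05 there were 0 of 46 as well, against 649 of all genes. With cultures and the embryo as a random block, 0 of the 46 and 80 of all genes passed. The null embryos lay all above or all below the wild type embryos for 0 of the 46, against 6.66% of all genes. Of the 46 differences, 32 were above 0 and 14 below, from -0.15 for Dut to 0.35 for Rfc4, with a median of 0.089 (all genes: -0.0035). The bounds of the 95% intervals ran from -0.59 (Tk1) to 0.87 (Rfc4), so no interval reached a 2-fold change in either direction. The intervals differed in width, with -0.22 to 0.18 for Pcna. With 3 and 5 embryos, a change inside a gene's own interval was not excluded.

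The sign of that median rested on wild type embryo 2. Without this embryo the median was -0.14 and 42 of the 46 genes lay below 0, and the exceptions were Pola2, Pold3, Rfc4 and Rrm2. Again 0 of the 46 passed, against 11 of all genes. Leaving out wild type embryo 3 in its place gave a median of 0.25. With the embryo number as a replicate block, under which null embryos 4 and 5 carry no comparison, it was -0.021.

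**Figure D1:**
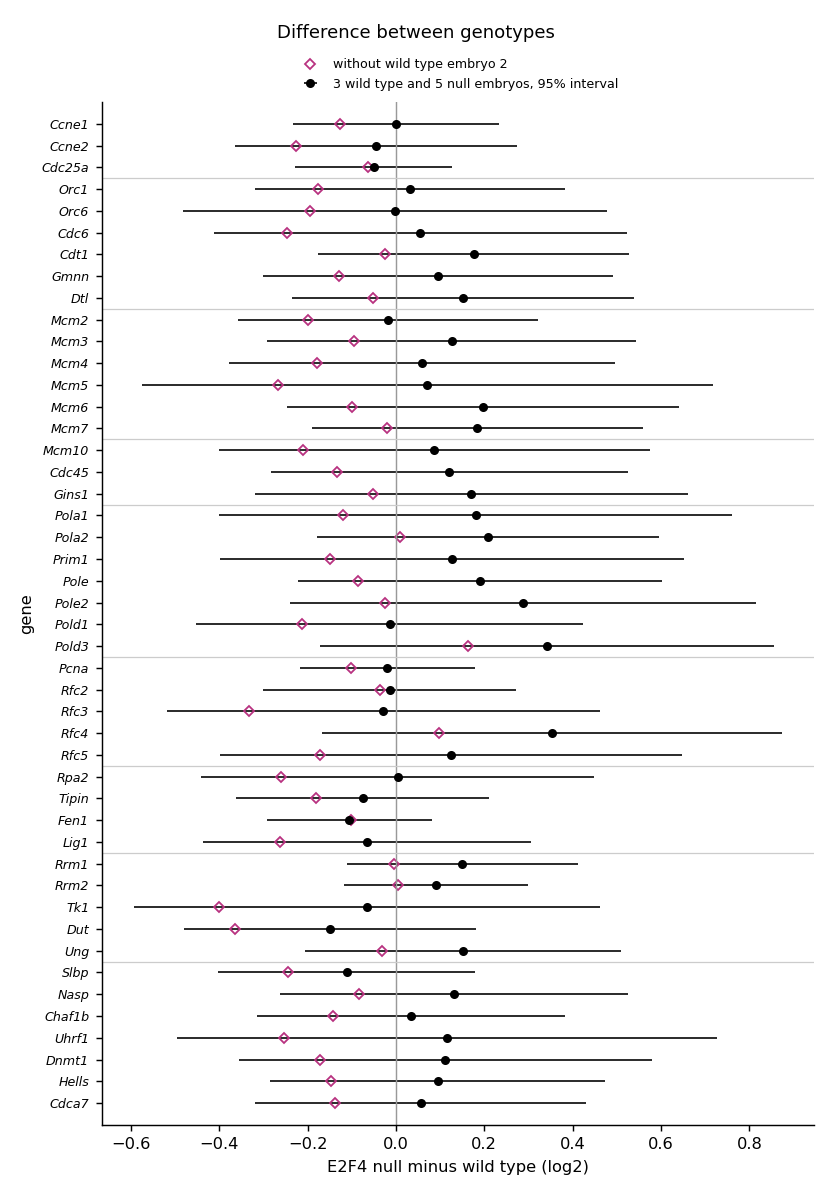
Difference between E2F4 null and wild type for each of the 46 genes (log2, x axis), ordered by role group with grey lines between groups. Black points are means of 5 null minus 3 wild type embryos with their 95% intervals, all of which cross 0, and open diamonds are the differences without wild type embryo 2, of which 42 lie below 0.

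The spread of these genes lay between embryos. The median of the 46 genes deviated from the mean of the 8 embryos by 0.052, -0.51 and 0.27 (log2) in wild type embryos 1 to 3 and by -0.17, -0.14, 0.12, 0.17 and 0.20 in null embryos 1 to 5. Wild type embryo 2 was thus low, null embryos 1 and 2 were intermediate, and wild type embryo 3 was high. Wild type embryo 2 was the lowest of the 8 embryos in 39 of 46 genes (1784 of 7436 genes overall) and wild type embryo 3 the highest in 34 (938 overall). On bulk RNA, fewer cells in S phase and less transcript per cell cannot be told apart.

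Repeat cultures gave nearly the same value. The median of the 46 genes was between -0.52 and -0.46 in the 3 cultures of wild type embryo 2, between 0.018 and 0.082 in those of embryo 1, and between 0.27 and 0.28 in the 4 of embryo 3. The null pairs were -0.16 and -0.21, -0.10 and -0.17, 0.099 and 0.12, 0.20 and 0.13, and 0.21 and 0.16 in embryos 1 to 5. Per gene, the median SD was 0.28 between embryos of a genotype and 0.10 between cultures of an embryo, a ratio of 2.93 (0.14, 0.12 and 1.17 for all genes). The ratio was above 1 in 45 of the 46 genes. Whether the cultures of an embryo were grown, harvested or hybridised together is not given in the labels, so embryo and handling cannot be told apart.

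**Figure D2:**
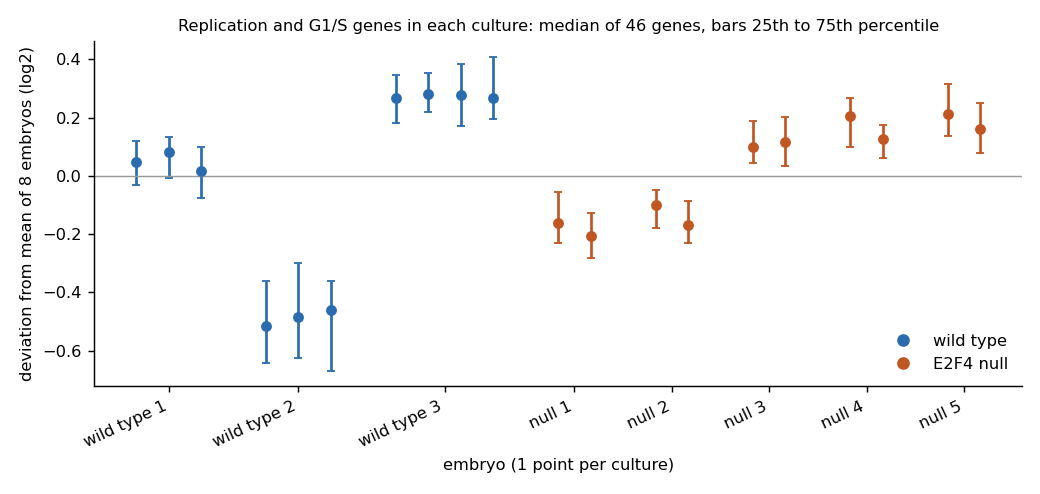
Median deviation of the 46 genes from the mean of the 8 embryos (log2, y axis) in each of the 20 cultures, grouped by embryo on the x axis. Points are medians and bars run from the 25th to the 75th percentile of genes; the 3 cultures of wild type embryo 2 lie lowest, at -0.52 to -0.46, and cultures of 1 embryo sit together.

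Between wild type embryos 44 of the 46 genes differed (limma F over cultures, adjusted p under 0.05), where 51.4% of all genes did. The exceptions were Cdc25a and Fen1. Between null embryos 32 of the 46 differed, where 27.8% of all genes did. This second count was 18 without culture 1 and 8 without culture 2 of each embryo, which leaves 1 culture per null embryo and takes the spread from wild type cultures alone. These p-values set the differences between embryos against the spread between cultures of an embryo, and say nothing of embryos beyond these.

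The pairs of embryos gave the direction. In wild type embryo 2, 42 of the 46 genes were lower than in embryo 1 (20.6% of all genes were), with a median of -0.52, a 1.44-fold difference. Cdc25a, Rfc2, Fen1 and Rrm2 did not pass. Embryo 3 was higher than embryo 1 for 26 genes (7.42% of all genes) with a median of 0.25, and higher than embryo 2 for 44 genes (25.1%) with a median of 0.77, or 1.71-fold. All 6 MCM genes and all 7 polymerase genes were lower in embryo 2 than in embryo 1.

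Among null embryos, 1 and 2 stood below 3, 4 and 5. Against embryo 1, 23 genes were higher in embryo 3 (7.13% of all genes), 26 in embryo 4 (8.88%) and 28 in embryo 5 (10.1%), with medians of 0.27, 0.34 and 0.35. Against embryo 2, 17 were higher in embryo 3 (8.36%), 23 in embryo 4 (11.1%) and 30 in embryo 5 (10.8%), with medians of 0.25, 0.29 and 0.35, and Rfc2 alone was lower in embryo 3. Within each set few genes differed. Embryo 2 was lower than embryo 1 for Pold1 only (2.65% of all genes), embryo 5 was higher than embryo 3 for Rfc2 only (0.498%), and 0 of the 46 passed between embryos 3 and 4 (1.06% in either direction) or 4 and 5 (1.17%).

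**Figure D3:**
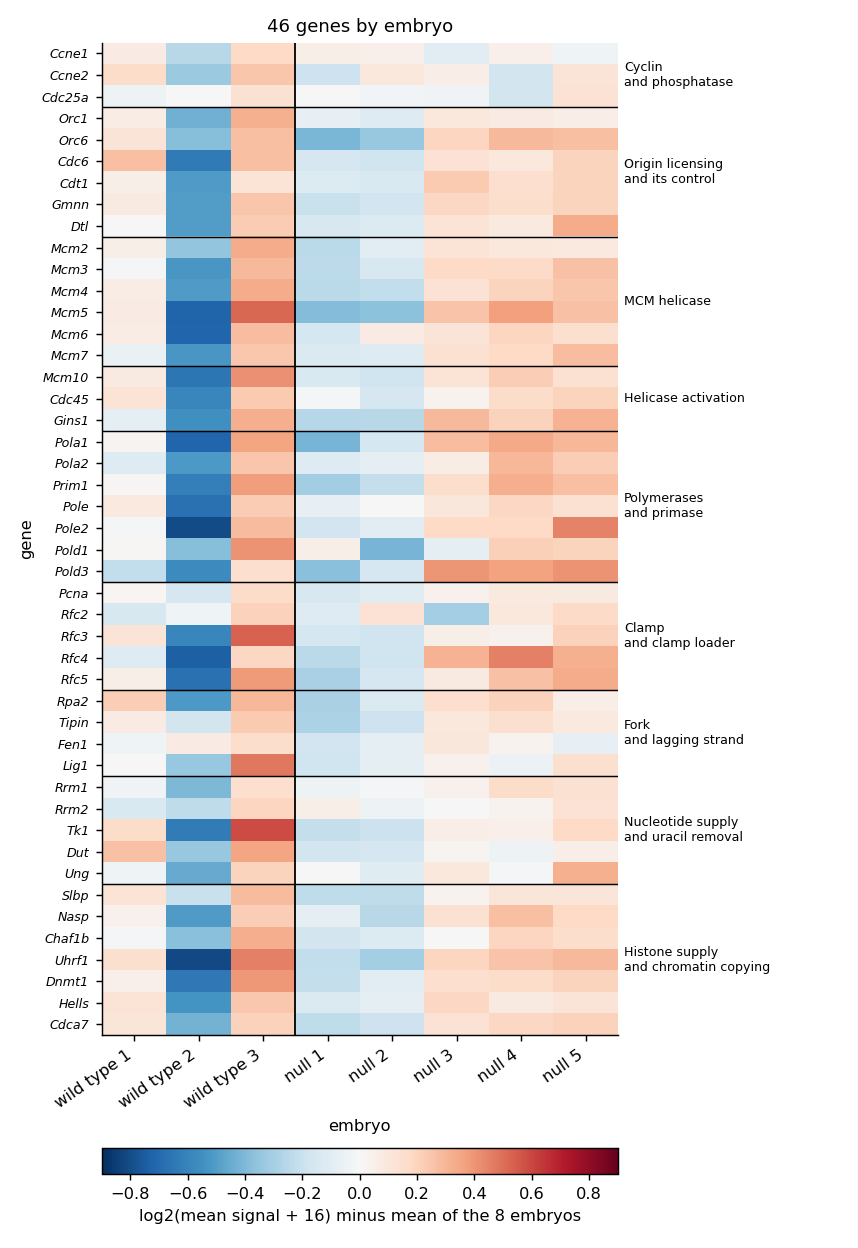
The 46 genes (rows, by role group) in the 8 embryos (columns, wild type left of the vertical line), coloured by log2(mean signal + 16) minus the mean of the 8 embryos, blue below and red above. Wild type embryo 2 is blue in nearly all rows, null embryos 1 and 2 are pale blue in most, and Cdc25a, Rfc2 and Fen1 stand out as rows without the pattern.

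The size of the swing differed from gene to gene. From the lowest to the highest embryo the median gene spanned 0.82 (log2), or 1.76-fold, against 1.35-fold for all genes. Uhrf1 spanned 2.39-fold, Pole2 2.38-fold, Mcm5 2.36-fold, Tk1 2.32-fold and Rfc4 2.28-fold. At the other end were Cdc25a with 1.24-fold, Pcna with 1.25-fold, Fen1 with 1.28-fold, Rrm2 with 1.34-fold and Ccne1 with 1.35-fold. These spans are of the probe set used, and Pcna and Ccne1 had only 1. Against the mean of embryos 1 and 3, the second probe sets put wild type embryo 2 at -0.44 for Cdc25a and -0.56 for Fen1. The ones used gave -0.043 and 0.0090. For Rrm2 the other probe sets gave -0.39 and -0.30, and the one used -0.255. Pcna, the sliding clamp, had signals of 5758 to 7191 over the 8 embryos.

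Cyclin E drives entry into S phase with its kinase, and the phosphatase Cdc25a removes inhibitory phosphates from that kinase. Cdc25a had signals of 846, 877 and 964 in wild type embryos and of 876, 858, 857, 777 and 958 in null embryos. The groups overlapped and wild type embryo 2 was not low, and the difference was -0.050 (SE 0.079, limma adjusted p = 0.887). The second probe set of Cdc25a did show embryo 2 lower than the mean of embryos 1 and 3, by -0.44 against -0.043 for the one used, and their r over the embryos was 0.026. Ccne2 had 669, 468 and 710 in wild type embryos and 521, 635, 622, 530 and 645 in null embryos. Ccne1 had 403, 319 and 436 in wild type embryos and 397, 396, 355, 396 and 371 in null embryos. In both cyclin genes wild type embryo 2 was the lowest of the 8, and the genotype differences were -0.046 (SE 0.14) and 9.7e-06 (SE 0.10). None of the 3 passed the F test between null embryos, which 27.8% of all genes passed.

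Origin licensing loads the MCM helicase in G1 through ORC, Cdc6 and Cdt1, with geminin (Gmnn) and the ubiquitin ligase adaptor Dtl restraining Cdt1 thereafter. Cdt1 had signals of 1975, 1329 and 2073 in wild type embryos and of 1743, 1727, 2243, 2114 and 2185 in null embryos. Null embryos 3 to 5 lay above all wild type embryos and null embryos 1 and 2 among them, and the difference was 0.18 (SE 0.16, 95% interval -0.18 to 0.53, limma adjusted p = 0.780). Dtl had 306, 210 and 360 in wild type embryos and 274, 278, 334, 325 and 389 in null embryos, a difference of 0.15 (SE 0.17). All 6 genes of the group, the restrainers included, differed between wild type embryos (51.4% of all genes did). Between null embryos 5 differed, all but Orc1 (27.8% of all genes did). Cdc6 had the largest difference of the group in wild type embryo 2, -0.91 against the mean of embryos 1 and 3. Orc6 was the gene of the group whose lowest embryo was null embryo 1, at 615, with wild type embryo 2 at 627 and null embryo 2 at 645.

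The MCM proteins form the hexamer that unwinds DNA, and the 6 subunit genes shared 1 pattern. All differed between wild type embryos (51.4% of all genes did) and all between null embryos (27.8%). Wild type embryo 2 was the lowest of the 8 for each. Mcm6 had signals of 2785, 1617 and 3227 in wild type embryos and of 2388, 2798, 2887, 3043 and 2938 in null embryos. Mcm7 had 3340, 2416 and 4119 in wild type embryos and 3175, 3214, 3835, 3938 and 4234 in null embryos. For both, all null embryos lay above wild type embryo 2, and the other wild type embryos were among or above them. The genotype differences were 0.20 (SE 0.20, limma adjusted p = 0.809) for Mcm6 and 0.18 (SE 0.17, adjusted p = 0.785) for Mcm7, and without wild type embryo 2 they were -0.098 and -0.021. In the group they ran from -0.018 for Mcm2 to 0.20 for Mcm6, with a median of 0.099.

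Cdc45, the GINS complex and Mcm10 turn the loaded MCM ring into an active helicase. Mcm10 had signals of 315, 183 and 401 in wild type embryos and of 268, 261, 326, 349 and 328 in null embryos. Cdc45 had 346, 206 and 375 in wild type embryos and 313, 283, 324, 356 and 366 in null embryos. Gins1, a GINS subunit, had 358, 256 and 482 in wild type embryos and 317, 318, 471, 444 and 479 in null embryos. In the 3 genes wild type embryo 2 was the lowest and embryo 3 the highest of the 8. The genotype differences were 0.087, 0.12 and 0.17 with SEs of 0.22, 0.18 and 0.22. Of the 3, Gins1 alone passed the F test between null embryos, which 27.8% of all genes passed.

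DNA polymerase alpha with primase starts each strand, and polymerases epsilon and delta extend the leading and lagging strands. This group had the highest median genotype difference of the 9 role groups, 0.19, and the lowest median in wild type embryo 2, -0.63. Pold3, a delta subunit, had signals of 215, 165 and 283 in wild type embryos and of 192, 227, 339, 331 and 340 in null embryos. Null embryos 3 to 5 exceeded all wild type embryos and null embryos 1 and 2 did not. The difference was 0.34 (SE 0.23, 95% interval -0.17 to 0.86, limma adjusted p = 0.707), 0.28 with its other probe set. Pole2, an epsilon subunit, had 553, 313 and 683 in wild type embryos and 494, 522, 635, 634 and 766 in null embryos, a difference of 0.29 (SE 0.23). Pola1, the catalytic alpha subunit, had 378, 221 and 479 in wild type embryos and 274, 331, 454, 475 and 461 in null embryos, a difference of 0.18 (SE 0.26). For both genes the null values lay within the wild type range apart from Pole2 in null embryo 5. The group's median without wild type embryo 2 was -0.085. Pold1, the catalytic delta subunit, was lower in null embryo 2 (344) than in null embryo 1 (483).

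Replication factor C loads the clamp Pcna onto primed DNA. Rfc4 had signals of 635, 407 and 787 in wild type embryos and of 580, 606, 862, 948 and 862 in null embryos. Null embryos 3 to 5 lay above all wild type embryos and null embryos 1 and 2 between wild type embryos 2 and 1. The difference of 0.35 (SE 0.23, 95% interval -0.17 to 0.87, limma adjusted p = 0.703) was the highest of the 46 and was 0.25 with the other probe set and 0.097 without wild type embryo 2. Rfc5 had 735, 439 and 928 in wild type embryos and 577, 635, 751, 854 and 895 in null embryos, a difference of 0.13 (SE 0.23) with all null embryos inside the wild type range. Rfc3 gave -0.028. Rfc2 had another order, with 549, 592 and 703 in wild type embryos and 559, 665, 488, 651 and 686 in null embryos, so that null embryo 3 was its lowest.

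At the fork, replication protein A coats single strands, Tipin stabilises the stalled fork, Fen1 trims Okazaki fragments and Lig1 seals them. Rpa2 had signals of 494, 289 and 521 in wild type embryos and of 341, 383, 470, 490 and 440 in null embryos. Tipin had 1793, 1523 and 2008 in wild type embryos and 1398, 1494, 1823, 1890 and 1814 in null embryos, with null embryo 1 lowest. Neither separated the genotypes, with differences of 0.0040 (SE 0.20) and -0.075 (SE 0.13). Fen1 had 898, 971 and 1035 in wild type embryos and 818, 872, 994, 946 and 878 in null embryos, a difference of -0.11 (SE 0.083, limma adjusted p = 0.747). The Fen1 probe set used, whose suffix x_at marks probes shared with other transcripts, showed no drop in wild type embryo 2 (0.0090 against the mean of embryos 1 and 3), while the second one gave -0.56.

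Ribonucleotide reductase (Rrm1, Rrm2), thymidine kinase (Tk1) and dUTPase (Dut) supply nucleotides, and Ung removes uracil. Tk1 had signals of 1060, 606 and 1426 in wild type embryos and of 811, 825, 982, 974 and 1072 in null embryos. It had the largest F between wild type embryos of the 46 (adjusted p = 5.1e-11), all null embryos lay between wild type embryos 2 and 3, and the genotype difference was -0.065 (SE 0.23). Dut had 1720, 1128 and 1833 in wild type embryos and 1277, 1287, 1458, 1383 and 1490 in null embryos, all null values lying below wild type embryos 1 and 3. Its difference, -0.15 (SE 0.15, 95% interval -0.48 to 0.18, limma adjusted p = 0.807), was the lowest of the 46, with 0.0067 by its other probe set and -0.36 without wild type embryo 2. Rrm1 had 2713, 2087 and 3068 in wild type embryos and 2684, 2747, 2841, 3107 and 3037 in null embryos, a difference of 0.15 (SE 0.12). Between null embryos 1 of the 5 measured genes differed, Tk1, where 27.8% of all genes did.

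The last group binds histone mRNA (Slbp), carries and deposits histones (Nasp, Chaf1b) or copies DNA methylation and heterochromatin (Uhrf1, Dnmt1, Hells), and includes Cdca7, which works with Hells. Uhrf1 had signals of 883, 446 and 1096 in wild type embryos and of 679, 639, 911, 955 and 978 in null embryos. Wild type embryo 2 was far below the rest, and all null embryos lay inside the wild type range, with a difference of 0.12 (SE 0.27, 95% interval -0.50 to 0.73, limma adjusted p = 0.921). Nasp had 1118, 759 and 1271 in wild type embryos and 1027, 911, 1196, 1315 and 1232 in null embryos, a difference of 0.13 (SE 0.17). Slbp had 1781, 1424 and 1997 in wild type embryos and 1393, 1392, 1672, 1769 and 1769 in null embryos, a difference of -0.11 (SE 0.13). Slbp was lowest in null embryos 1 and 2, which lay just under wild type embryo 2. The second probe sets of Uhrf1 and Nasp gave genotype differences of the opposite sign, -0.20 and -0.15, but also placed wild type embryo 2 below embryos 1 and 3.

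The genes varied together over the embryos. Over the 1035 pairs of the 46 genes, the median Pearson r of their deviations from the genotype means in 8 embryos was 0.915, and 99.8% of pairs were above 0. The median over all pairs of the 7436 genes was 0.0020, and 1.02% of those pairs lay above the members' median. The median Spearman rho of the members was 0.833. Without wild type embryo 2 the members' median r was 0.856, with 95.5% of their pairs above 0 and a lowest r of -0.60. Of all pairs of genes, 3.23% then lay above that median. On undivided values without the 2 embryos farthest from the median (wild type 2 and null 1) the members' median was 0.761 over 6 embryos. The value for all pairs of genes was not computed for these 6. These are descriptions, since the pairs share arrays and embryos. By gene, 39 of 46 had a median r above 0.8 with the other members, led by Uhrf1 at 0.961, Gmnn at 0.959 and Dnmt1 at 0.958. Cdc25a at 0.215, Rfc2 at 0.259 and Fen1 at 0.374 were below 0.5, and Ccne1 at 0.622, Rrm2 at 0.729, Ccne2 at 0.741 and Pold1 at 0.7998 lay between.

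A second probe set of the same gene mostly agreed. For 20 of the genes 25 further probe sets passed the filter, with a median r of 0.948 with the one used and 19 above 0.8, and 24 of the 25 pairs placed wild type embryo 2 below the mean of the other wild type embryos in both. The sign of the genotype difference was opposite in 6 of the 25.

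**Figure D4:**
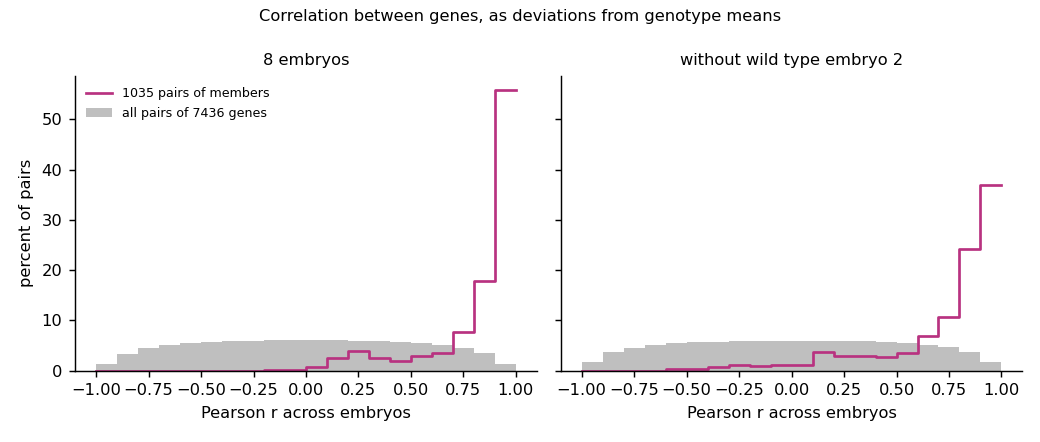
Percent of gene pairs (y axis) by Pearson r across embryos (x axis, bins of 0.1) on deviations from genotype means, for the 1035 pairs of members (line) and all pairs of 7436 genes (grey bars). The members' pairs pile up at the right with a median of 0.915 for 8 embryos and 0.856 without wild type embryo 2, while all pairs spread on both sides of 0.

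Other replication genes and genes of mitosis had the same 4 lowest embryos in the same order, wild type 2, null 1, null 2 and wild type 1. Of 36 further replication genes 27 were measured, 23 above 0 between genotypes with a median of 0.092, and 0 passed. Their median in wild type embryo 2 was -0.38, and 25 of 27 differed between wild type embryos (51.4% of all genes did). Between null embryos 9 of 27 differed, a share near that of all genes (27.8%). The genes with the smallest p were Pold4, a delta subunit, at -0.22 (signals 443, 376 and 358 in wild type, 345, 351, 334, 314 and 318 in null embryos), and Dbf4, the activator of the Cdc7 kinase, at 0.30 (1419, 1017 and 1597 in wild type, 1394, 1523, 1706, 1750 and 1795 in null embryos). Pold4 thus lay lower in every null embryo, though its adjusted p was 0.476, and wild type embryo 2 was not its lowest. All 26 measured G2/M genes of 28 lay above 0 with a median of 0.14, 0 passed, and without wild type embryo 2, 17 of the 26 lay below 0. Their medians by embryo were -0.0055, -0.51 and 0.21 in wild type and -0.14, -0.11, 0.13, 0.21 and 0.24 in null embryos. Kif22, a mitotic kinesin, had signals of 2464, 1832 and 2302 in wild type and 2231, 2782, 3008, 2556 and 3506 in null embryos, a difference of 0.36 (SE 0.15). Anln, which acts in cytokinesis, had 2657, 2167 and 3165 in wild type and 2603, 2829, 3095, 3432 and 3298 in null embryos, a difference of 0.21 (SE 0.13). Both genes were lowest in wild type embryo 2, and the genotypes overlapped.

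Of 19 genes of the E2F, pocket protein and DREAM families 14 were measured, 5 above 0 between genotypes with a median of -0.034, and 0 passed. Their median in wild type embryo 2 was -0.14, and 10 of 14 differed between wild type embryos (51.4% of all genes) and 6 of 14 between null embryos (27.8%). Of the 14, 6 were lowest of the 8 embryos in wild type embryo 2 (1784 of 7436 genes overall). Single genes here were named after their values were seen. Rbl1, which encodes p107, was lowest in that embryo, with signals of 441, 274 and 498 in wild type embryos and 285, 341, 378, 388 and 416 in null embryos. Rb1 (282, 343 and 237 in wild type embryos), E2f3 (105, 154 and 97.4) and E2f6 (833, 887 and 702) were instead highest of the 8 in wild type embryo 2.

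Some arrest genes and some cell type markers varied with the same embryos and others did not, and their part in the result was not tested. Single genes of these lists were chosen after their values were seen. The list of 15 called arrest genes here also holds the D cyclins Ccnd1 and Ccnd2, which are not arrest genes. Against the mean of embryos 1 and 3, these 2 stood at 0.18 and 0.45 in wild type embryo 2. The 15 had a median of 0.20 in that embryo, and 12 of them differed between wild type embryos (51.4% of all genes did). Between null embryos 13 differed (27.8%). Cdkn1a, the p21 kinase inhibitor, had signals of 2473, 4514 and 2074 in wild type embryos and of 3496, 3616, 2305, 1703 and 1899 in null embryos. Ccng2, a cyclin of arrested cells, had 341, 989 and 278 in wild type and 589, 669, 316, 289 and 303 in null embryos. Both were highest in wild type embryo 2 and next in null embryos 1 and 2, the embryos with the least replication transcript. Gas1, which is induced in growth-arrested fibroblasts, was lowest in wild type embryo 2 and null embryos 1 and 2, with 2345, 324 and 3438 in wild type and 498, 425, 2903, 3647 and 3329 in null embryos. Cdkn2c, a kinase inhibitor, was also lowest in these embryos (425, 329 and 538 in wild type, 295, 354, 437, 443 and 487 in null embryos), and Cdkn2d (449, 475 and 489, and 457, 517, 510, 506 and 558) did not separate them from the rest.

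Fibroblast markers did not all move one way. All 13 were measured, with summed signals of 103317 to 104167 in wild type and 93903 to 107393 in null embryos. Pdgfra, a receptor of mesenchymal cells, had 852, 191 and 1200 in wild type and 197, 339, 908, 1110 and 1368 in null embryos, and the matrix gene Lum had 597, 81.8 and 2220 and 202, 133, 917, 1007 and 1408. Both were lowest in wild type embryo 2 and null embryos 1 and 2. Fibronectin, Fn1, was highest in those embryos, with 14420, 16590 and 13530 in wild type and 16090, 15630, 11590, 11200 and 11410 in null embryos. The 5 skeletal muscle markers, 3 above the filter, summed to 873, 4286 and 533 in wild type and 1728, 3561, 497, 443 and 434 in null embryos. The actin gene Acta1 gave 3870 in wild type embryo 2 and 3143 in null embryo 2, while the muscle regulators Myod1 and Myog stayed at or under 33.2. Macrophage markers, 10 of 11 above the filter, summed to 1966 to 3203 in wild type and 1652 to 5158 in null embryos, highest in null embryo 4, which was not a low embryo. The sums were 429 to 758 and 449 to 685 for 6 endothelial, 313 to 554 and 400 to 737 for 5 epithelial, 797 to 995 and 752 to 1308 for 5 neural markers, and 10 to 17 and 4 to 19 for the 2 erythroid ones with a probe set. Of these lists 2, 2, 2 and 0 passed the filter. The endothelial, epithelial and neural sums were each highest in wild type embryo 2 and null embryos 1 and 2. They were 758, 685 and 684, then 554, 737 and 634, then 995, 1308 and 1207 in these embryos. The erythroid sums did not follow this order. Single genes did not all follow it either, and the neural marker Tubb3 was lowest in wild type embryo 2 (232).

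**Figure D5:**
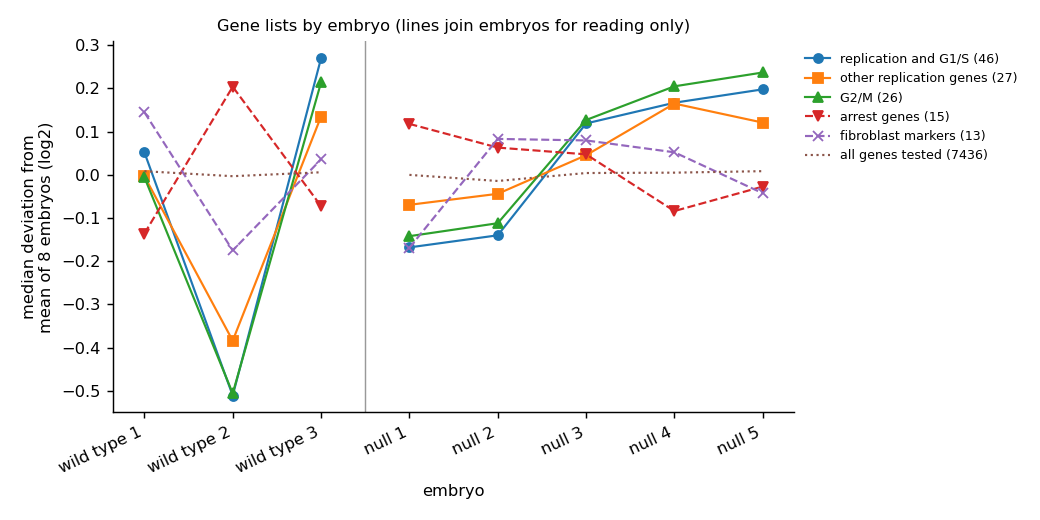
Median deviation from the mean of the 8 embryos (log2, y axis) of each gene list in each embryo (x axis, wild type left of the vertical line). Replication, other replication and G2/M genes share a low point in wild type embryo 2, at -0.51, -0.38 and -0.51. The arrest list, which also holds Ccnd1 and Ccnd2, is highest there at 0.20, while the median of all genes stays near 0.

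Outside the lists, the genes whose pattern over the 8 embryos was most like the mean of the 46 included genes of the cell cycle. By Pearson r with the mean of standardised values these were Hmmr at 0.995, Bcl7c at 0.986, Dek at 0.981, Kif2c at 0.981, Pbk at 0.980, Msh6 at 0.979, Pclaf at 0.977 and Arhgap21 at 0.977. Without wild type embryo 2 the same genes had r from 0.942 to 0.996. They were picked for their r over all 8 embryos, so this value from a subset of them is no separate check. Hmmr, a spindle protein, had signals of 918, 714 and 1074 in wild type and 806, 826, 966, 969 and 991 in null embryos. Pclaf, which binds Pcna, had 3771, 2415 and 4503 in wild type and 3147, 3230, 3848, 4547 and 4183 in null embryos. Their genotype differences were 0.030 and 0.12, and 0 of the 8 passed.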

How the data were processed

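The deposited values are probe set signal intensities on a linear scale, per the submitters' processing notes from MAS5, whose scaling equalises the average of all probe sets and would hide a change shared by all genes. Detection calls were not used here. Symbols came from the platform annotation, updated through RefSeq (20364 of 20393 probe sets with 1 symbol matched). Values were taken as log2(signal + 16), with the brightest probe set per gene, and only genes at or above the 40th percentile of mean signal were kept. Embryo means of the genotypes were compared in R 4.3.3 with limma 3.58.1 (eBayes with trend, two-sided, null minus wild type). Embryos of a genotype were compared with limma over the 20 cultures, with F tests and pairwise contrasts. Adjustment was by Benjamini-Hochberg over 7436 genes at 0.05. The fits were tested on simulated data. The members, lists and tests were chosen with earlier results of these data known. Signals per embryo were given for E2f4 and, in each role group, for the 2 members with the smallest genotype p and the 1 with the largest F between wild type embryos, for the 2 smallest p in the other replication and G2/M lists. Outside the lists, the 8 genes with the highest r were named, 2 of them with signals. Other values were named after they were seen. Embryo numbers were not taken as pairs, since the labels name no shared litter. Deviations of same-numbered wild type and null embryos correlated at 0.0863, 0.639 and 0.423, and so few values cannot show or exclude pairing. Few embryos and arrays and, for dim probe sets, background limit the precision. Alternatives are given at the end.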

Additional observations from a re-analysis of the deposited data

How the results depend on the processing

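The count of 0 replication genes passing between genotypes held under each alternative tried: pseudocounts of 4 and 64, no filter or the 60th percentile, quantile normalization, median centring, the mean of all probe sets, cultures 1 and 2 only, single cultures with a random block for the embryo, other variance models, a replicate block by embryo or by culture number, and each embryo left out. The median difference of 0.089 changed sign with the embryo number as a replicate block (-0.021), and with single embryos left out it ran from -0.14 (without wild type embryo 2) to 0.25 (without wild type embryo 3). The number of genes differing between null embryos ran from 8 to 30 with a culture number left out, and that between wild type embryos from 43 to 44. Embryos of the same number were not treated as pairs. Of the wild type embryos, 1 of 3 was closest to the null embryo of its own number, which cannot show or exclude pairing. Blocking on culture number changed no call. Of 500 values for named genes 499 kept within the spread, and Slbp moved from -0.11 to 0.093 with the mean of all probe sets. The other Slbp probe set had a mean signal of 7.03, under the filter. Signals near background limit Tyms and the genes under the filter.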
